A study of Mus musculus with 8 samples.

Results

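Superoxide dismutases, peroxiredoxins and catalase are the enzymes that remove superoxide and hydrogen peroxide, and 10 genes encode the ones described here (Sod1, Sod2, Sod3, Prdx1 to Prdx6 and Cat), of 14765 genes in the count table. The genes were selected by symbol, as members of these enzyme families, after the differences between the groups were known, among them a much lower Sod3 level in SNI. The Sod3 difference is therefore given as a description with no p-value, and the counts over the set support nothing beyond themselves. All 10 had counts in every library, as did every gene of the table. All 10 also passed the filter on low counts, which left 13911 of the 14765 genes for testing.

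Bulk poly(A) RNA sequencing was done on PrL tissue of C57 mice, in 4 SNI and 4 Sham libraries. SNI is read here as spared nerve injury, an operation on branches of the sciatic nerve that leaves animals with long-lasting pain, Sham as its control operation, and PrL as the prelimbic part of the medial prefrontal cortex. The labels give no age, sex, time after surgery or side, nor whether the libraries of a group are separate animals, so the spread behind each p-value may be partly technical. Whether the groups differed in anything besides the operation was not tested, and every difference given here carries that limit.

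Superoxide is formed when electrons leak from mitochondria or are passed to oxygen by NADPH oxidases. Superoxide dismutases turn it into hydrogen peroxide, with the copper-zinc enzyme SOD1 mainly in the cytosol, the manganese enzyme SOD2 in the mitochondrial matrix, and the secreted copper-zinc enzyme SOD3 in the extracellular space. Catalase breaks hydrogen peroxide down in peroxisomes. Peroxiredoxins reduce it with a reactive cysteine that thioredoxin or glutathione then restores, in the cytosol (PRDX1, PRDX2, PRDX6), mitochondria (PRDX3, PRDX5) and endoplasmic reticulum (PRDX4).

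Library totals were 14735602 to 19602487 counts. Levels in CPM, a depth-scaled read count, were computed after TMM scaling, whose factors ran from 0.998 to 1.03 in SNI and from 0.976 to 0.987 in Sham. Mitochondrially encoded genes held 3.94% to 6.16% of counts in SNI and 5.12% to 5.88% in Sham. All 6 markers of cortical excitatory neurons were present, with a summed level of 3560 to 5023 CPM in SNI and 4764 to 5469 CPM in Sham. Of 13 marker lists, the summed level did not overlap between the groups in 3: 8 upper-layer neuron markers (580 to 654 CPM in SNI, 689 to 868 CPM in Sham), 5 listed of 7 choroid plexus markers (6.51 to 8.30 CPM in SNI, 2.15 to 5.44 CPM in Sham) and 5 listed of 6 red blood cell markers (81.0 to 184 CPM in SNI, 31.5 to 64.4 CPM in Sham). Striatal neuron markers reached 765 and 754 CPM in SNI replicates 2 and 4, against 214 to 430 CPM in the other libraries.

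Within the set, the gene of the extracellular dismutase had a lower level in every SNI library, a cytosolic peroxiredoxin gene rose, and the other 8 members did not pass the test. At a false discovery rate (FDR) of 0.05 over all tested genes, 1 of the 9 members other than Sod3 was higher in SNI (Prdx1) and 0 were lower. Over all tested genes, 5.02% were called, 2.15% higher and 2.87% lower, or 299 and 399 genes. Scaling by library totals alone turned that split to 446 higher and 276 lower. The SNI and Sham values did not overlap for 3 members, Sod3, Prdx1 and Prdx4, while 12.7% of all tested genes showed such a separation. The median log2 fold change of SNI over Sham was 0.05 over the 10 members, with 8 above 0. Over all 13911 tested genes it was 0.01, with 7259 above 0. Since SNI differences of this set were known in advance, nothing is read from these shares. In bulk tissue, fewer cells of a type and less RNA per cell cannot be told apart.

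**Figure D1:**
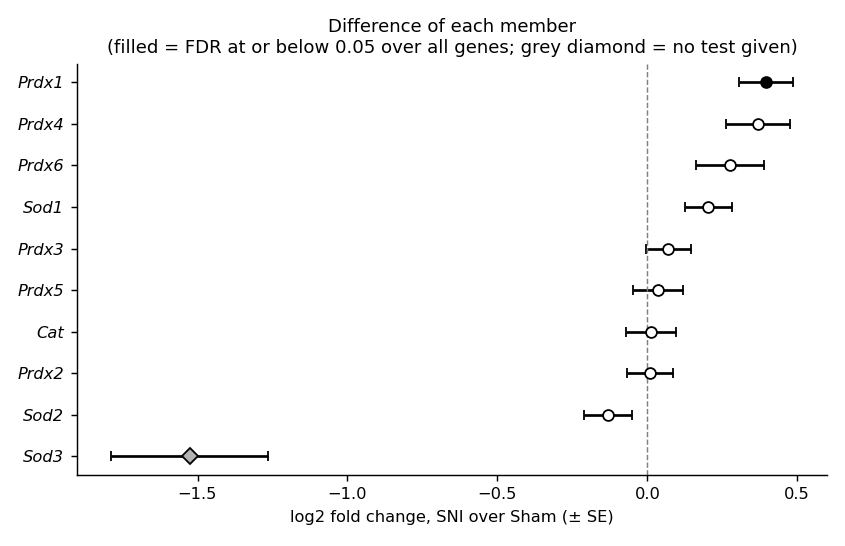
Log2 fold change of SNI over Sham for each of the 10 genes (horizontal axis), with its standard error, from the edgeR fit to all tested genes; filled points passed an FDR of 0.05, and Sod3, for which no test is given, is a grey diamond. Sod3 lies at -1.53, far from the other 9, which lie between -0.13 and 0.40, and its bar is not read as a test.

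Sod3, the gene of the secreted superoxide dismutase, had the largest difference of the set. It lies on the plus strand of chromosome 5, from 52363791 to 52371418 in GRCm38, and shares its span with no other annotated gene. SNI replicates 1 to 4 held 72, 50, 121 and 100 reads, and Sham replicates 1 to 4 held 234, 208, 223 and 280. Scaled to depth, these were 4.46, 2.48, 8.05 and 6.03 CPM in SNI, against 15.9, 13.8, 14.1 and 16.1 CPM in Sham. Every SNI library lay below every Sham library, and the SNI libraries were much more spread among themselves.

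The mean Sod3 level was 5.25 ± 2.36 CPM in SNI and 15.0 ± 1.17 CPM in Sham (SD, n = 4 libraries each). Its log2 fold change was -1.53, a level 2.88-fold lower in SNI. The coefficient of variation between libraries was 45.0% in SNI and 7.84% in Sham. SNI replicate 2 had the lowest Sod3 level and SNI replicate 3 the highest of the SNI group. In the other 9 members this coefficient was between 3.12% and 14.4% in SNI and between 4.95% and 14.4% in Sham.

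The Sod3 level can also be read against the other dismutases in the same library, which removes any scaling between libraries. For every 100 Sod1 reads there were 1.96, 0.921, 3.25 and 2.41 Sod3 reads in SNI replicates 1 to 4, against 7.05, 6.05, 6.79 and 7.91 in Sham replicates 1 to 4. For every 100 Sod2 reads there were 2.17 to 7.03 Sod3 reads in SNI and 10.4 to 13.5 in Sham. Sod3 thus made up 0.642% to 2.18% of the reads of the 3 dismutase genes in SNI and 3.79% to 4.44% in Sham. The summed level of the 3 genes overlapped between the groups, at 352 to 386 CPM in SNI and 357 to 365 CPM in Sham, since Sod1 and Sod2 held nearly all of it.

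Over 19 alternative analyses of the same libraries the log2 fold change of Sod3 ran from -1.81 (without SNI replicate 3) to -1.26 (without SNI replicates 2 and 4, the libraries highest in striatal markers), and it was -1.51 without SNI replicates 2 and 3. The lists of upper-layer, choroid plexus and red blood cell markers given above also separated the groups, and their part in the Sod3 difference was not tested. The part of the striatal markers, all 8 with a positive log2 fold change, was not tested either. Summed endothelial markers overlapped between the groups, at 293 to 412 CPM in SNI and 300.4 to 354 CPM in Sham, as did pericyte and smooth muscle markers at 191 to 324 CPM in SNI and 201 to 270.1 CPM in Sham. The endothelial sum covers opposite differences, with 5 positive and 3 negative log2 fold changes, from -0.39 (Kdr) to 0.30 (Flt1), and 0 passed.

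The 5 genes whose profile over the 8 libraries was most like that of Sod3, among 11659 genes with a mean log2 CPM of at least 2, were Lgals3bp, Robo3, Usp43, Marcksl1 and Irgm2. Likeness is the root-mean-square difference between log2 CPM values centred on each gene's own mean, and it was 0.35 for Lgals3bp, a secreted galectin-3 binding glycoprotein, and 0.38 for Robo3, an axon guidance receptor. It was 0.46 for Usp43, a deubiquitinase gene, 0.52 for Marcksl1, a MARCKS-like actin regulator, and 0.52 for Irgm2, an interferon-induced GTPase. The root-mean-square of the centred Sod3 values themselves was 0.91. The log2 fold changes of SNI over Sham of the 5 genes were -1.28, -1.32, -0.82, -0.88 and -1.77 in that order. Negative values follow from picking genes for likeness to Sod3 over the same libraries. Exons of Irgm2 overlap Igtp on the same strand and exons of Usp43 overlap a transcript on the opposite strand, so reads of both genes are uncertain.

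Sod1, the gene of the cytosolic copper-zinc dismutase, did not pass. On chromosome 16 it runs along the plus strand from 90220754 to 90226329 (GRCm38), within the span of Scaf4 on the opposite strand but with 0 shared exon bases. Its levels were 228, 269, 248 and 250.5 CPM in SNI replicates 1 to 4, against 225, 228, 208 and 203 CPM in Sham replicates 1 to 4. SNI replicate 1 lay just below Sham replicate 2, so the groups overlapped. The means were 249 ± 16.8 CPM in SNI and 216 ± 12.5 CPM in Sham (SD, n = 4 libraries each), and the log2 fold change of 0.20 ± 0.0791 (SE) did not pass (edgeR adjusted p = 0.151).

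Sod2, the mitochondrial manganese dismutase, was the other member with a negative fold change besides Sod3. The gene occupies chromosome 17 from 13006846 to 13040063 on the plus strand. It had 119.6, 114, 114 and 124 CPM in SNI replicates 1 to 4, against 118, 123, 136 and 142 CPM in Sham replicates 1 to 4. The SNI values fell within or below the Sham range, with Sham replicates 3 and 4 highest. Mean levels were 118 ± 4.84 CPM in SNI and 129.6 ± 11.3 CPM in Sham (SD, n = 4 libraries each), with a log2 fold change of -0.13 ± 0.0799 (SE, edgeR adjusted p = 0.365). There were 190.4 to 235 Sod1 reads per 100 Sod2 reads in SNI and 143 to 191 in Sham, so this ratio overlapped between the groups by 1 library each.

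**Figure D2:**
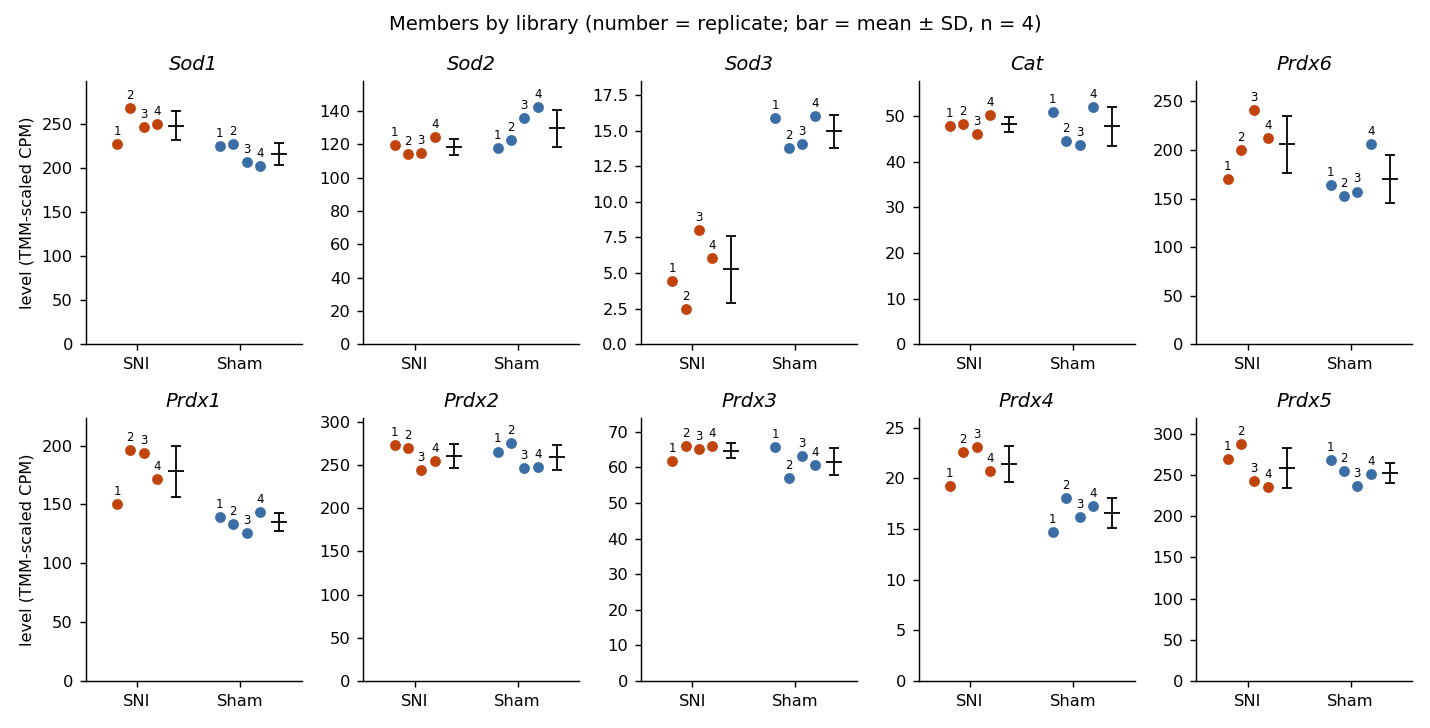
Level of each of the 10 genes in TMM-scaled CPM (vertical axis, from 0) in the 4 SNI and 4 Sham libraries; numbers mark the replicate and bars the mean with its SD. Sod3 spans 2.48 to 8.05 CPM in SNI and 13.8 to 16.1 CPM in Sham, and Prdx1 and Prdx4 are higher in every SNI library than in any Sham library.

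Cat, which encodes catalase, did not pass. It is found on the minus strand of chromosome 2, from 103453849 to 103485160. SNI replicates 1 to 4 had 48.0, 48.3, 46.2 and 50.4 CPM, against 51.0, 44.6, 43.8 and 52.0 CPM in Sham replicates 1 to 4. All SNI values lay inside the Sham range. Means were 48.2 ± 1.72 CPM in SNI and 47.8 ± 4.24 CPM in Sham (SD, n = 4 libraries each), and 2 standard errors around the log2 fold change of 0.01 spanned -0.15 to 0.18 (edgeR adjusted p = 0.955).

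Among the peroxiredoxins 1 of 6 passed, and the 6 log2 fold changes ran from 0.01 to 0.40, with a median of 0.17. All 6 were above 0 under each of the 4 scalings, while those of Prdx2 and Prdx5 fell to between -0.02 and 0 in limma voom and without some libraries. The median over all tested genes was also above 0 under each scaling, from 0.0059 (RLE) to 0.0587 (library totals). Prdx2 lay below that median under each of them. Prdx1 encodes a cytosolic peroxiredoxin of the typical 2-Cys kind, which works as a pair of subunits and is a known target of the transcription factor NRF2. It lies on the plus strand of chromosome 4, from 116685544 to 116700822. Its levels were 150.1, 196, 194 and 172 CPM in SNI replicates 1 to 4, against 139, 133, 126 and 144 CPM in Sham replicates 1 to 4. Every SNI value was above every Sham value, narrowly in SNI replicate 1.

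Mean Prdx1 levels were 178 ± 21.6 CPM in SNI and 135 ± 7.70 CPM in Sham (SD, n = 4 libraries each). The log2 fold change was 0.40 ± 0.0913 (SE), or 1.32-fold (edgeR adjusted p = 0.0229). Leaving out a library ended this call in 3 cases, with edgeR adjusted p of 0.058 without Sham replicate 2, 0.0882 without Sham replicate 3 and 0.0783 without SNI replicate 3. Dropping SNI replicates 2 and 4 together gave 0.0928, and dropping 2 and 3 together gave 0.155 with a log2 fold change of 0.25. Against its closest cytosolic relative there were 55.1, 72.7, 79.3 and 67.6 Prdx1 reads per 100 Prdx2 reads in SNI replicates 1 to 4, and 52.3, 48.3, 51.0 and 58.1 in Sham replicates 1 to 4. This ratio overlapped between the groups, since SNI replicate 1 lay below Sham replicate 4.

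The promoters of Prdx1 and Sod1 are shown because, of the 8 members matched to RefSeq promoter windows (GRCm38.p6, 250 bases before to 50 after a gene start), these held the letters TGACNNNGC, the core of the antioxidant response element that NRF2 binds. Sod3 and Prdx6 had no such window, so their promoters were not searched. Both strands were searched, and 12.4% of all 32851 windows held a match. The 250 bases before each start are given 5′ to 3′ on the gene's own strand, with the match in capitals, as it reads when the core lies on the opposite strand.
Prdx1, chr4:116685349-116685598, plus strand: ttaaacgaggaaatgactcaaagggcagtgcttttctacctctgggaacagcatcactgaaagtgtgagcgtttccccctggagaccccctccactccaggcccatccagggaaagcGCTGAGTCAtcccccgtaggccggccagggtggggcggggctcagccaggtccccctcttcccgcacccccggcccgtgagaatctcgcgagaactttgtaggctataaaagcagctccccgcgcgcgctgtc
Sod1, chr16:90220512-90220761, plus strand: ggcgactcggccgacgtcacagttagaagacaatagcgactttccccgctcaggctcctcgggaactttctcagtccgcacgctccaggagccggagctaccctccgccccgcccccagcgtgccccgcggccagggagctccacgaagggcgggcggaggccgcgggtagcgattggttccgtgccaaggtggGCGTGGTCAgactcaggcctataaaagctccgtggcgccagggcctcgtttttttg
In Prdx1 the match begins 133 bases before the start (chromosome 4, 116685466 to 116685474) and overlaps a match to the AP-1 motif TGANTCA, which 7.81% of all windows held. In Sod1 it begins 56 bases before the start (chromosome 16, 90220706 to 90220714). Both windows also held the TATA box letters TATAAA (13.6% of windows, 3 of the 8 members), and all 8 members held the GC box letters GGGCGG (35.7% of windows). Such a match describes the letters in the window and does not show binding.

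Prdx4 encodes the peroxiredoxin of the endoplasmic reticulum and secretory pathway. It lies on the minus strand of chromosome X, from 155323918 to 155340754. The libraries held 19.2, 22.6, 23.1 and 20.7 CPM in SNI replicates 1 to 4, against 14.7, 18.1, 16.2 and 17.3 CPM in Sham replicates 1 to 4. No SNI value reached down into the Sham range. With means of 21.4 ± 1.79 CPM in SNI and 16.6 ± 1.45 CPM in Sham (SD, n = 4 libraries each), the log2 fold change was 0.37 ± 0.107 (SE) and just missed the threshold (edgeR adjusted p = 0.0569). It passed with upper quartile scaling (0.0491), with library totals (0.0355), in DESeq2 (0.0327) and without SNI replicate 1 (0.0413). Prdx4 had 31.1 to 35.4 reads per 100 reads of the mitochondrial Prdx3 in SNI and 22.4 to 31.7 in Sham, and these ranges overlapped.

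Prdx6 encodes a 1-Cys peroxiredoxin that also has phospholipase activity and relies on glutathione. On chromosome 1 it spans 161240112 to 161251219 of the minus strand. It had 170.1, 199.6, 242 and 212 CPM in SNI replicates 1 to 4, against 164, 153, 157 and 206 CPM in Sham replicates 1 to 4. Sham replicate 4 lay above 2 of the SNI libraries, so the groups overlapped. The means of 206 ± 29.6 CPM in SNI and 170.0 ± 24.5 CPM in Sham (SD, n = 4 libraries each) gave a log2 fold change of 0.28 ± 0.114 (SE, edgeR adjusted p = 0.176). Prdx6 had the largest spread between libraries of the set after Sod3 in SNI, and the largest in Sham.

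The same 4 libraries (SNI replicates 2, 3 and 4 and Sham replicate 4) were highest in Prdx6 and in astrocyte markers, and the part of these cells in the Prdx6 values was not tested. The 10 astrocyte markers, of which 10 were listed, summed to 3891, 4808, 5044 and 4504 CPM in SNI replicates 1 to 4, against 3984, 4213, 4466 and 4823 CPM in Sham replicates 1 to 4. SNI replicate 3 was the highest and Sham replicate 4 next. None of these 10 markers passed, and the summed levels overlapped between the groups.

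Prdx2, Prdx3 and Prdx5 had the smallest fold changes among the peroxiredoxins. Prdx2 encodes the other cytosolic 2-Cys enzyme, which is also abundant in red blood cells. At chromosome 8, 84969587 to 84974834 on the plus strand, it had 273, 269.9, 245 and 254 CPM in SNI replicates 1 to 4, against 265, 275, 246 and 247 CPM in Sham replicates 1 to 4. The groups covered nearly the same range. The summed red blood cell markers of the same libraries were higher in every SNI library, and the part of these cells in the Prdx2 values was not tested. The members of that list did not move together: Hba-a1 had 81.5 ± 32.6 CPM in SNI and 16.0 ± 5.23 CPM in Sham (SD, n = 4 libraries each), whereas Hba-a2, a near-identical copy of that globin gene, had 0.257 ± 0.203 CPM in SNI and 3.31 ± 1.53 CPM in Sham. Reads shared by such copies cannot be placed with certainty. Prdx2 itself had a log2 fold change of 0.01, with 2 standard errors spanning -0.14 to 0.16 (edgeR adjusted p = 0.96).

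Prdx3, the mitochondrial 2-Cys enzyme gene on the minus strand of chromosome 19 from 60864051 to 60874556, had 61.7, 66.0, 65.2 and 65.9 CPM in SNI replicates 1 to 4, against 65.7, 56.9, 63.2 and 60.7 CPM in Sham replicates 1 to 4. The log2 fold change was 0.07, and 2 standard errors spanned -0.08 to 0.22 (edgeR adjusted p = 0.629). Prdx5 is an atypical 2-Cys enzyme gene on the same chromosome and strand, from 6906697 to 6910106, whose protein is found in mitochondria, peroxisomes and cytosol. It had 269, 288, 242 and 236 CPM in SNI replicates 1 to 4, against 268, 255, 237 and 251 CPM in Sham replicates 1 to 4. Here the SNI values fell on both sides of the Sham range, and the log2 fold change of 0.03 had 2 standard errors spanning -0.13 to 0.20 (edgeR adjusted p = 0.853). These intervals do not show that the 3 genes were equal in both groups.

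Some of these counts depend on how reads were assigned. The library chemistry keeps the strand, but the sources used here do not say whether the counting did. Exons of Prdx2 share 177 bases with Rnaseh2a and 173 with Junb, and exons of Prdx5 share 409 bases with Trmt112, all on the opposite strand. Junb had a log2 fold change of 0.44, Rnaseh2a 0.21 and Trmt112 0.20, and none of them passed. Prdx2 and Prdx6 also have near relatives elsewhere in the genome (Prdx2-rs3, Prdx6b and Prdx6-ps2), so their counts are uncertain to that extent. Relatives were looked for by gene symbol only, so copies of any member under other names would have been missed.

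Levels were compared between genes per kilobase of merged exons of the GENCODE M21 basic transcripts. Sod1 was highest in both groups, at 388 ± 26.2 CPM per kilobase in SNI and 337 ± 19.5 in Sham (SD, n = 4 libraries each), and Sod3 lowest, at 1.41 ± 0.633 in SNI and 4.002 ± 0.314 in Sham. After Sod1 came Prdx5 (179 in SNI, 175 in Sham), Prdx2 (140.4 in SNI, 139 in Sham), Prdx6 (82.4 in SNI, 68.1 in Sham), Prdx1 (70.0 in SNI, 53.2 in Sham) and Prdx3 (43.8 in SNI, 41.7 in Sham), in the same order in both groups. The lower part differed in order: it ran Prdx4 (21.6), Sod2 (20.2), Cat (18.4) in SNI and Sod2 (22.1), Cat (18.3), Prdx4 (16.7) in Sham.

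Neighbours in this order mostly did not overlap over the 4 libraries of a group. The exceptions were Prdx6 and Prdx1 in SNI, Prdx4 and Sod2 in SNI, and Cat and Prdx4 in Sham. With the longer comprehensive transcript models, which take Sod1 from 641 to 3970 bases, Prdx5 was highest (121 CPM per kilobase in SNI, 118 in Sham), then Prdx2, with Sod1 in place 3 (62.6 in SNI, 54.4 in Sham). Only Sod2 and Sod3 kept their place in SNI under both lengths.

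**Figure D3:**
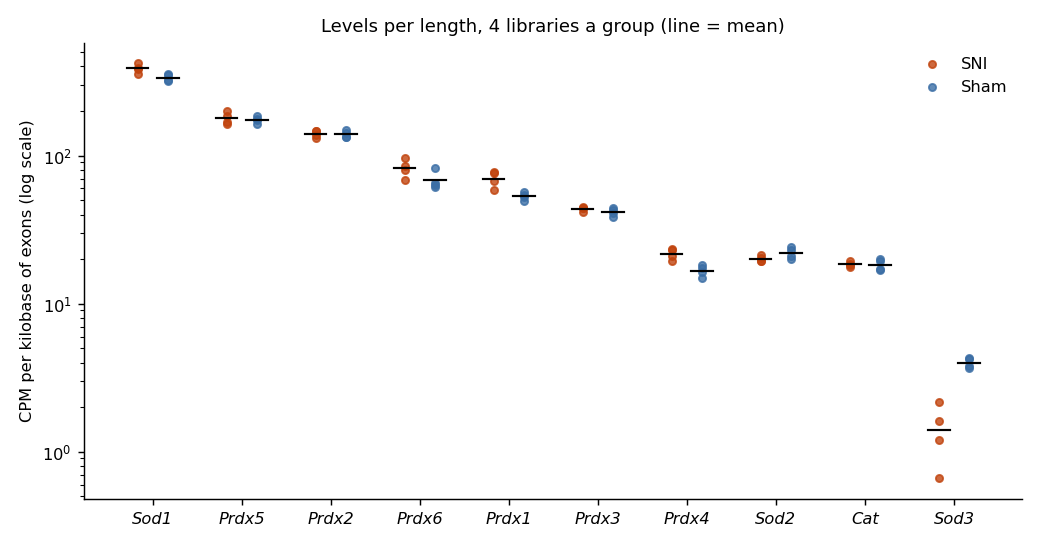
CPM per kilobase of exons (vertical axis, log scale) for the 10 genes in order of their SNI mean, with each library as a point and the group mean as a line, SNI left of Sham. Sod1 averages 388 in SNI and 337 in Sham, Sod3 averages 1.41 in SNI and 4.002 in Sham, and Prdx4, Sod2 and Cat lie close together.

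The genes with profiles closest to Sod1, the member with the highest level per length, were Lsm6, Pdrg1, Eif3m, Ttc1 and Jmjd6. Their root-mean-square differences from Sod1 were 0.03 for Lsm6, an RNA-binding Sm-like protein gene, and Pdrg1, and 0.04 for Eif3m, a subunit of a translation initiation factor, Ttc1 and Jmjd6. The root-mean-square of the centred Sod1 values themselves was 0.13. The log2 fold changes of these 5 genes ran from 0.16 to 0.22, beside 0.20 for Sod1. The genes were picked for likeness over the same libraries, so near fold changes follow from the choice. Exons of Eif3m and Jmjd6 overlap other genes.

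Genes around the set were taken from 6 lists that hold 86 further genes between them, of which 80 were tested. Of these, 4 were higher in SNI, 1 in each of 4 lists, and 0 were lower, beside 5.02% called among all tested genes. At an unadjusted p under 0.05 there were 20 of the 80, and 2931 of the 13911. The median log2 fold change of the 80 was 0.11, with 53 above 0 and 27 below. Over all 13911 tested genes it was 0.01, with 7259 above 0, which stands beside the counts of each list below. With library totals alone the median over all tested genes was 0.06.

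In the thioredoxin system, which restores most peroxiredoxins, 1 of 13 genes rose. This was Txnip, whose protein binds and inhibits thioredoxin, with 19.3, 21.5, 31.0 and 22.7 CPM in SNI replicates 1 to 4, against 14.8, 9.43, 11.2 and 16.2 CPM in Sham replicates 1 to 4. All SNI values were above all Sham values, and the log2 fold change was 0.87 ± 0.178 (SE, edgeR adjusted p = 0.0158). The call ended without Sham replicate 3 (0.056), without SNI replicates 2 and 4 together (0.0667) and without SNI replicates 2 and 3 together (0.107). Txnip exons share 606 bases with an antisense transcript. Txn1, the cytosolic thioredoxin gene (log2 fold change -0.04), Txnrd1, which reduces it (0.15), and Srxn1, which repairs overoxidised peroxiredoxins (-0.09), did not pass, and the list's median was -0.04.

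Among 17 glutathione system genes 1 rose and 14 had a positive log2 fold change, with a median of 0.17. The riser was Mgst1, a membrane-bound glutathione transferase and peroxidase, at 7.62, 12.7, 12.6 and 9.34 CPM in SNI replicates 1 to 4, against 5.22, 7.04, 3.60 and 7.23 CPM in Sham replicates 1 to 4. SNI replicate 1 was only just above the highest Sham library. Its log2 fold change was 0.87 ± 0.220 (SE, edgeR adjusted p = 0.0347), and the call ended without Sham replicate 1 (0.094), Sham replicate 3 (0.093), SNI replicate 2 (0.1) or SNI replicate 3 (0.115), and without SNI replicates 2 and 4 (0.157) or 2 and 3 (0.333) together. Gpx4, a glutathione peroxidase that acts on lipid peroxides, had a log2 fold change of 0.31 (edgeR adjusted p = 0.0548), and Gclc, the catalytic subunit of the first enzyme of glutathione synthesis, 0.24 (edgeR adjusted p = 0.0696).

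Of 20 tested genes of the NRF2 list, 1 rose, 16 had a positive log2 fold change, and the median was 0.11. Nfe2l2, which encodes NRF2 itself, had 11.8, 17.2, 20.97 and 14.6 CPM in SNI replicates 1 to 4, against 10.7, 10.6, 9.60 and 12.3 CPM in Sham replicates 1 to 4. SNI replicate 1 lay below Sham replicate 4, so the groups overlapped. The log2 fold change was 0.58 ± 0.158 (SE, edgeR adjusted p = 0.0466), and the call ended without any of 6 of the 8 libraries (highest adjusted p 0.154, without SNI replicate 3). It also ended without SNI replicates 2 and 4 (0.141) or 2 and 3 (0.417) together, in limma voom (0.0681) and with the replicate number as a block (0.0725). Keap1, the adaptor that marks NRF2 for degradation, had a log2 fold change of 0.11, and the target genes Nqo1 and Hmox1 had 0.68 and 0.19. None of these 3 passed (edgeR adjusted p = 0.43, 0.0925 and 0.64 in that order).

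Of 11 tested genes for sources of superoxide and peroxide 1 rose and 10 had a positive log2 fold change. Cyba, the p22phox subunit of NADPH oxidases, had 11.5, 10.3, 17.8 and 8.68 CPM in SNI replicates 1 to 4, against 7.26, 6.84, 5.50 and 8.49 CPM in Sham replicates 1 to 4. SNI replicate 4 was barely above the highest Sham library. Its log2 fold change was 0.78 ± 0.207 (SE, edgeR adjusted p = 0.0448), and the call ended without any of 6 of the 8 libraries (highest adjusted p 0.13, without Sham or SNI replicate 3). It also ended without SNI replicates 2 and 3 together (0.232), in limma voom (0.077) and with the replicate number as a block (0.109). Microglia carry much of this oxidase in brain, and 10 of 10 microglia markers summed to 456 to 733 CPM in SNI and 454 to 548 CPM in Sham, highest in SNI replicate 3 as for Cyba. The sum covers opposite differences, with 2 of the 10 markers called higher and 1 called lower. P2ry12 and Tmem119, genes of resident microglia, were higher in every SNI library, with log2 fold changes of 0.59 and 0.48 (edgeR adjusted p = 0.031 and 0.0243 in that order). In 10 analyses that left out 1 library, SNI replicates 2 and 4, or SNI replicates 2 and 3, the call of P2ry12 ended in 8 (highest adjusted p 0.243) and that of Tmem119 in 5 (highest 0.105), both highest without SNI replicates 2 and 3. Cx3cr1, the fractalkine receptor gene, had 1.93 ± 0.317 CPM in SNI and 51.2 ± 4.47 CPM in Sham (SD, n = 4 libraries each), the lowest log2 fold change of all tested genes (-4.74, edgeR adjusted p = 2.41e-12), and its call held in all 10. The other 7 markers did not pass, and 8 of the 10 had a positive log2 fold change. The part of these cells in the Cyba values was not tested.

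Among 11 genes of copper and manganese delivery 0 passed in edgeR, with 0 at an unadjusted p under 0.05 and 0 in DESeq2. The list's 2 members of smallest p were Atp7b, a copper-exporting pump gene (log2 fold change -0.55, edgeR adjusted p = 0.253), and Slc31a2, related to a copper importer (0.29, edgeR adjusted p = 0.27). Ccs, the chaperone that loads copper into SOD1, had a log2 fold change of 0.16, and Atp7a, the pump that supplies copper to secreted enzymes, 0.25, with 3.57 ± 0.0942 CPM in SNI and 3.00 ± 0.251 CPM in Sham (SD, n = 4 libraries each, edgeR adjusted p = 0.492). Of 13 peroxisome import genes 0 passed in edgeR, 2 had an unadjusted p under 0.05, and 1 was called in DESeq2. They were Pex5, the receptor that brings most matrix enzymes into the peroxisome (log2 fold change -0.32, edgeR adjusted p = 0.0536), and Pex19 (-0.18, edgeR adjusted p = 0.176). For both, every SNI library lay below every Sham library, as such a separation in either direction was seen for 12.7% of all tested genes. For Pex5 the groups almost touched, at 59.05 CPM in SNI replicate 4 and 59.13 CPM in Sham replicate 4.

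**Figure D4:**
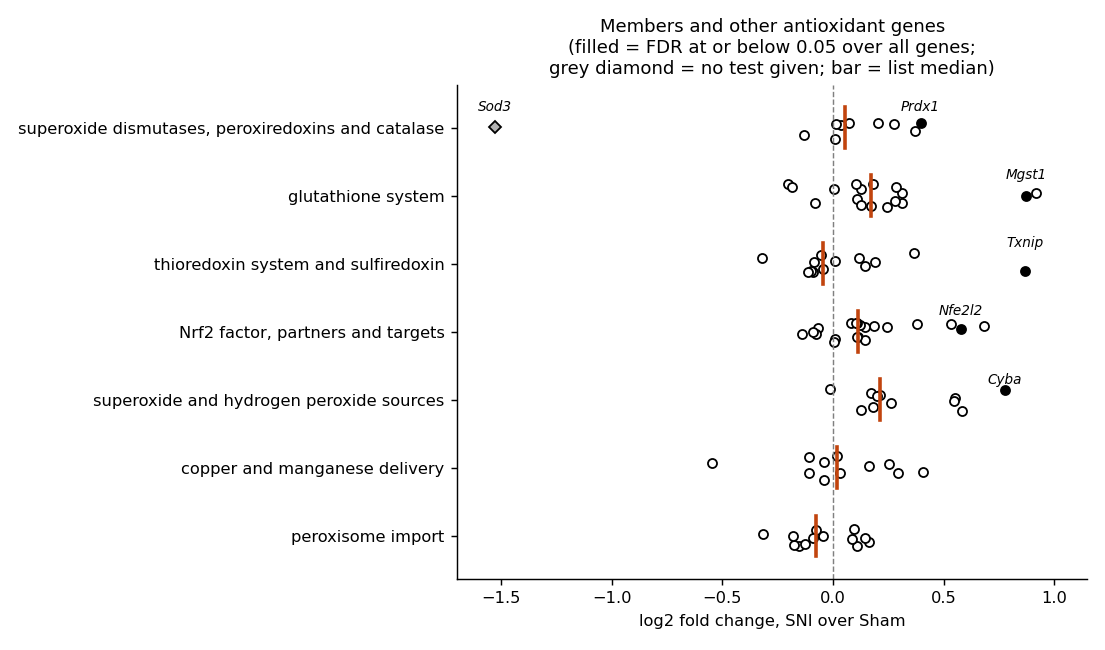
Log2 fold change of SNI over Sham (horizontal axis) for the 10 genes and for 6 lists of further antioxidant genes, each point a gene, filled where the FDR was at or below 0.05 over all genes, with a bar at the list median; Sod3, with no test given, is a grey diamond at -1.53. The filled genes lie above 0, from 0.40 for Prdx1 to 0.87 for Mgst1 and Txnip.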

How the data were processed

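The deposited values are raw read counts (whole numbers), with 1 row per gene symbol and 1 column for each of 8 libraries. Per the submitters' processing notes, the authors used fastp, HISAT2 and StringTie on GRCm38. The sources used here give no versions, annotation, strand setting or filter. No count in the table is below 1. Of 14765 symbols, 14661 matched GENCODE M21 (GRCm38), which gave coordinates and exon lengths.

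edgeR 4.0.16 in R 4.3.3 was run on the deposited counts: filterByExpr, TMM scaling and a robust quasi-likelihood F-test with group as the only term, two-sided, with Benjamini-Hochberg adjustment over all 13911 tested genes. The standard error is the fold change divided by the square root of F. The method was also run on counts simulated from its own fitted model, which cannot show how well that model holds for these libraries. No library was a copy of another (chi-square per degree of freedom between libraries of a group 7.54 to 28.9).

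The members, lists and alternatives were chosen with earlier results of these data known. Named genes are the 10 members, every called gene of each pathway list or else its 2 of smallest p, and the 5 closest profiles to Sod3 and to the member highest per length. Other pathway genes named (Txn1, Txnrd1, Srxn1, Gpx4, Gclc, Keap1, Nqo1, Hmox1, Ccs, Atp7a) were picked for their roles after their values were seen. Alternatives were RLE, upper quartile and library-total scaling, no filter, 1 CPM in 4 libraries, DESeq2 1.42.0, limma 3.58.1 voom, a replicate block, an FDR of 0.1, and leaving out 1 library or SNI replicates 2 and 4 or 2 and 3. Basic transcript lengths were used because the comprehensive models lengthen Sod1.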

Additional observations from a re-analysis of the deposited data

Results flagged for a closer look

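Of 36 groups of 4 libraries examined (18 genes in SNI and in Sham), 1 held a library far from the rest by Dixon's criterion, where chance gives about 1 in 20. Pex5, the peroxisomal import receptor, had 59.13 CPM in Sham replicate 4, against 69.9 to 71.0 CPM in the other Sham libraries. Without Sham replicate 4 its log2 fold change was -0.38, and it then passed the threshold.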

How the results depend on the processing

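Prdx1 kept its call in 14 of 19 alternatives (the 5 others are given with its values). The alternative with an FDR of 0.1, counted among them, is the same fit at a looser threshold. It could neither end a call nor change a fold change. Sod3 is given as a range with its values and without a call. Sod1, Sod2, Prdx2, Prdx3, Prdx5, Prdx6 and Cat passed in none of the 19 (lowest adjusted p 0.057, Prdx6 without Sham replicate 4). No called fold change turned its sign. Over the 17 genes followed besides Sod3, 33 fold changes lost a call under an alternative and 11 gained one, 279 stayed on their side of the threshold, and the cause was not tested. Fold changes near 0 crossed it: Prdx2 kept its sign in 13, Prdx5 in 16 and Cat in 15 of the 19.

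With 1 library left out in turn, the 698 calls over all genes ranged from 258 to 858, with 90 to 405 higher and 168 to 453 lower. Members higher ranged from 0 to 2, and the pathway genes higher from 0 to 6 and lower from 0 to 1. DESeq2 called 1165 genes (511 higher, 654 lower), with 2 members and 7 pathway genes higher and 1 pathway gene lower. An FDR of 0.1 gave 1279 (591 higher, 688 lower), with 2 members and 11 pathway genes higher and 1 pathway gene lower. Library totals gave 2 members and 7 pathway genes higher, and upper quartile scaling 2 members. RLE scaling and a filter of 1 CPM in 4 libraries each added 1 lower pathway gene, Pex5. Without SNI replicates 2 and 4 there were 438 calls (173 higher, 265 lower), 0 members and 2 pathway genes higher. Without SNI replicates 2 and 3 there were 178 (50 higher, 128 lower), 0 members and 0 pathway genes higher.

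With the replicate number as a block (replicate block) there were 518 calls, and 2 pathway genes higher in place of 4 (Nfe2l2 and Cyba missed). Same-numbered libraries did not deviate together (correlations -0.148 to -0.0056), so the numbers are not taken as pairs. With the comprehensive lengths, chosen after seeing the data, 2 of 10 members kept their place in SNI. Precision for Sod3 is limited by its 50 to 280 reads a library.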
